A study of Mus musculus with 6 samples.

Results

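Col10a1 (Entrez gene 12813) encodes the alpha 1 chain of collagen X, and it was taken as the single row of that name among 14882 listed genes. Its level was followed in hypertrophic zones from proximal tibial growth plates of C57BL/6 mice aged 7 days, in 3 Adamts17-/- libraries and 3 wild type (WT) libraries described as littermates. Adamts17 encodes a secreted metalloprotease, and the Adamts17-/- mice carry the loss in both copies. The sources used here do not say which part of the gene was removed. The zone was cut from cryosections by laser microdissection and its messenger RNA was linearly amplified before sequencing, per the labels. Nothing beyond the word littermates says that each library came from its own animal, so p-values measure the spread between libraries, which may be technical.

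Collagen X is a short, network-forming collagen of chains that assemble as homotrimers and are joined through their globular ends. In the growth plate it is made by hypertrophic chondrocytes, the enlarged cells that mineralise their matrix before bone replaces it, and its messenger RNA is the classic marker of that state. Col2a1, by contrast, encodes collagen II, the main fibril collagen made by chondrocytes from the earlier layers on. The comparison asks how the level of this marker differed between Adamts17-/- and WT zones.

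The gene lies on the forward strand of chromosome 10, from 34389981 to 34397085, and these coordinates of the table are the same as in the RefSeq annotation of GRCm38.p6. GENCODE M21, on the same assembly, gives it 3 exons of 63, 169 and 2898 bases, together 3130 bases, which is the transcript length in the table. Exon 1 is untranslated, and the coding part covers 154 bases of exon 2 and 1886 bases of exon 3. The 250 bases just before the annotated transcript start, from the RefSeq promoter table of GRCm38.p6 (chr10:34389731-34389980, forward strand), are shown as the promoter of the annotated transcript. Where the measured RNA starts was not mapped. The capitals mark the TATA box letters TATAAA.

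Col10a1: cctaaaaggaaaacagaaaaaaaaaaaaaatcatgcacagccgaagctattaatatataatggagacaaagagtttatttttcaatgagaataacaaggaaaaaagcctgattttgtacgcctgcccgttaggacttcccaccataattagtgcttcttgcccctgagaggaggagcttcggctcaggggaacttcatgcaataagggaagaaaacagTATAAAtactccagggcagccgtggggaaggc

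The TATA letters begin 32 bases before the start, and 12.4% of 32851 promoter windows of the same length hold them on either strand. The RUNX core TGTGGT, the AP-1 letters TGANTCA and the SOX core AACAAT had no match on either strand of this window, and 14%, 6.75% and 9.42% of windows hold them. These searches describe letters only, and enhancers farther away were not searched.

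The libraries were shallow and uneven. Each value times its transcript length was divided by a step per library, taken from the commonest such products and read as 1 read. This gave 595987 to 2688276 read equivalents on listed genes per library in Adamts17-/-, against 722121 to 899159 in WT. The step could be off by a factor of 2 in a library. Adamts17 itself was at 0.0085 to 0.0870 RPKM (reads scaled to transcript length and library size) in Adamts17-/- and 0.0407 to 0.397 RPKM in WT, too low to check the labels. Summed RPKM of 10 skeletal muscle markers ran from 301.3 to 498.4 in Adamts17-/- and from 161.8 to 14714 in WT, the highest being replicate 1. The globin gene Hbb-b1, which the list of erythroid markers leaves out, was at 9615, 120228 and 1481 RPKM in Adamts17-/- and 1687, 35255 and 3250 RPKM in WT. Summed RPKM of the 7 listed erythroid markers with values ran from 1791 to 108634 in Adamts17-/- and from 1204 to 26403 in WT. The highest was Adamts17-/- replicate 2. That replicate also had the highest neutrophil sum (51271, against at most 2109 elsewhere), while osteoclast sums ran from 230.2 to 3672 in Adamts17-/- and 256.4 to 4628 in WT, and endothelial sums from 3.06 to 65.9 in Adamts17-/- and 26.7 to 149.8 in WT. Of 8 erythroid and 7 neutrophil markers listed, 7 and 5 had values. No marker with values was at 0 in all 6 libraries, and the part of these tissues in the results below was not tested.

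Col10a1 was among the most abundant messages in every library, and in Adamts17-/- its average was lower than in WT without passing the test. Its level was 1437, 1507 and 4151 RPKM in Adamts17-/- replicates 1, 2 and 3, against 2218, 13347 and 5866 RPKM in WT replicates 1, 2 and 3. Adamts17-/- replicates 1 and 2 were below all WT libraries, Adamts17-/- replicate 3 was above WT replicate 1, and so the groups overlapped. The highest library was 9.29 times the lowest, the range being 2.89-fold within Adamts17-/- and 6.02-fold within WT. About 4621, 9899 and 8287 read equivalents stood behind the value in Adamts17-/-, and 9919, 32820 and 15724 in WT, and these are not counts of independent molecules, since the RNA was amplified. The message took 0.523%, 0.368% and 1.39% of all read equivalents in Adamts17-/-, and 1.19%, 4.54% and 1.75% in WT.

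**Figure D1:**
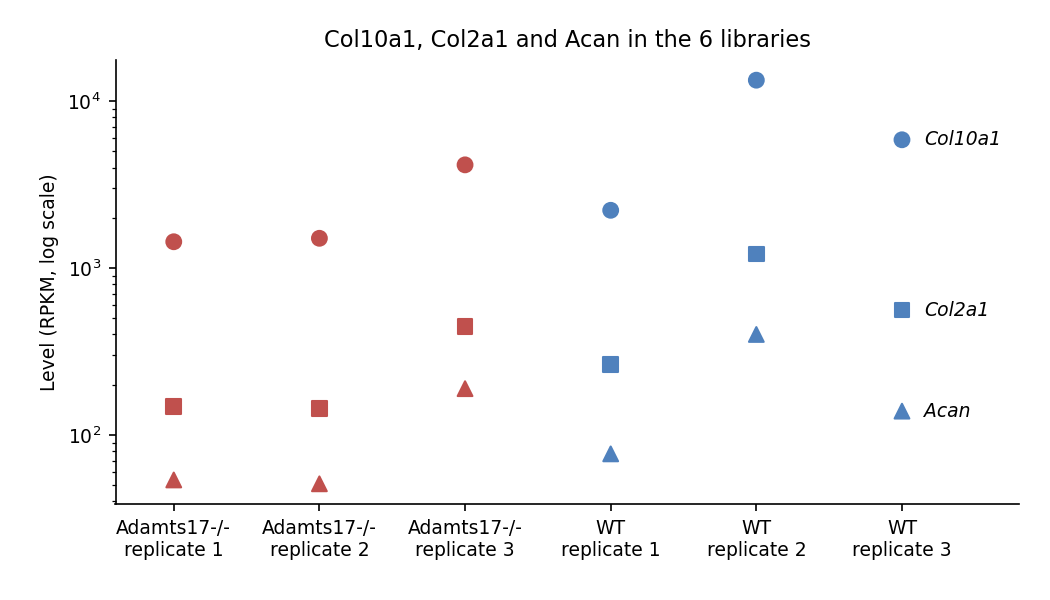
Level in RPKM on a log axis of Col10a1 (circles), Col2a1 (squares) and Acan (triangles) in each Adamts17-/- library (red) and each WT library (blue). Col10a1 spans 1437 to 4151 RPKM in Adamts17-/- and 2218 to 13347 RPKM in WT, and the 3 genes are high and low in nearly the same libraries.

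On the log2(RPKM + 1) scale Col10a1 averaged 11.02 ± 0.86 in Adamts17-/- and 12.45 ± 1.30 in WT (SD, n = 3 each). The log2 fold change was -1.42 ± 0.88 (SE), with a 95% interval of -3.21 to 0.37, an unadjusted limma p of 0.115 and an adjusted p of 0.999 over 9128 genes. An exact two-sided permutation test over the 6 libraries gave p = 0.2, where 0.1 is the smallest value that 3 libraries against 3 allow. The interval reaches from a 0.108-fold to a 1.29-fold level, so neither a strong fall nor a slight rise could be told apart at this spread. Genes called over the whole table by limma at an adjusted p under 0.05 made up 0% (0 of 9128), and 2.51% had an unadjusted p under 0.05. The gene's SD within groups was 1.10 log2 units, against a median of 1.59 over all tested genes and 1.42 over the 602 genes averaging at least 100 RPKM. With 1 library left out the log2 fold change ran from -2.09 (without WT replicate 1) to -0.79 (without WT replicate 2), and it was -0.64 with library weights. An unadjusted limma p under 0.05 was reached in 4 of 17 alternative fits (upper-quartile scaling, quantile normalization, totals without the top 10 genes, and without Adamts17-/- replicate 3), with an adjusted p of 1 in each. In that order the unadjusted limma p was 0.0279, 0.000596, 0.00809 and 0.0409. The unadjusted p thus depended on the scaling and, for the last value, on which libraries were kept. Markers of earlier chondrocytes, a list that holds Col2a1 and Acan, summed to 474.6, 412.4 and 1201 RPKM in Adamts17-/- and 952.5, 3714 and 1841 RPKM in WT. Of these, 11 of 11 tested had a fold change below 0, against 47.2% of all genes. The groups did not overlap for 27.3% of them (3 of 11), against 6.63% of all genes. An unadjusted limma p under 0.05 was found for 3 of the 11, against 2.51% of all genes, and none was called. In bulk tissue, fewer hypertrophic cells in the cut piece and less Col10a1 RNA per cell cannot be told apart.

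Col10a1 was at rank 4 or 5 in 4 libraries and lower in Adamts17-/- replicates 1 and 2. Counted from the highest RPKM, it stood at rank 63, 108 and 4 in Adamts17-/- replicates 1, 2 and 3, and at rank 5 in each WT library. By read equivalents, without division by length, the ranks were 11, 21 and 4 in Adamts17-/- and 2, 2 and 4 in WT. The exact two-sided permutation test of the rank gave p = 0.4. In Adamts17-/- replicate 1, 43 of the 62 genes above it were ribosomal protein genes and 5 were globin or other erythroid genes, and in replicate 2 it was 67 and 6 of 107. The erythroid class here held 10 genes, Hbb-b1 among them. In Adamts17-/- replicate 3, 0 of the 3 genes above it belonged to these classes, and in the WT libraries 0, 3 and 1 of 4 did. The summed RPKM of 94 ribosomal protein genes was 143383, 247442 and 72278 in Adamts17-/-, against 51290, 46142 and 131907 in WT. Adamts17-/- replicates 1 and 2, in which Col10a1 ranked lowest, thus had the highest ribosomal sums, and the part of this in the rank was not tested.

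**Figure D2:**
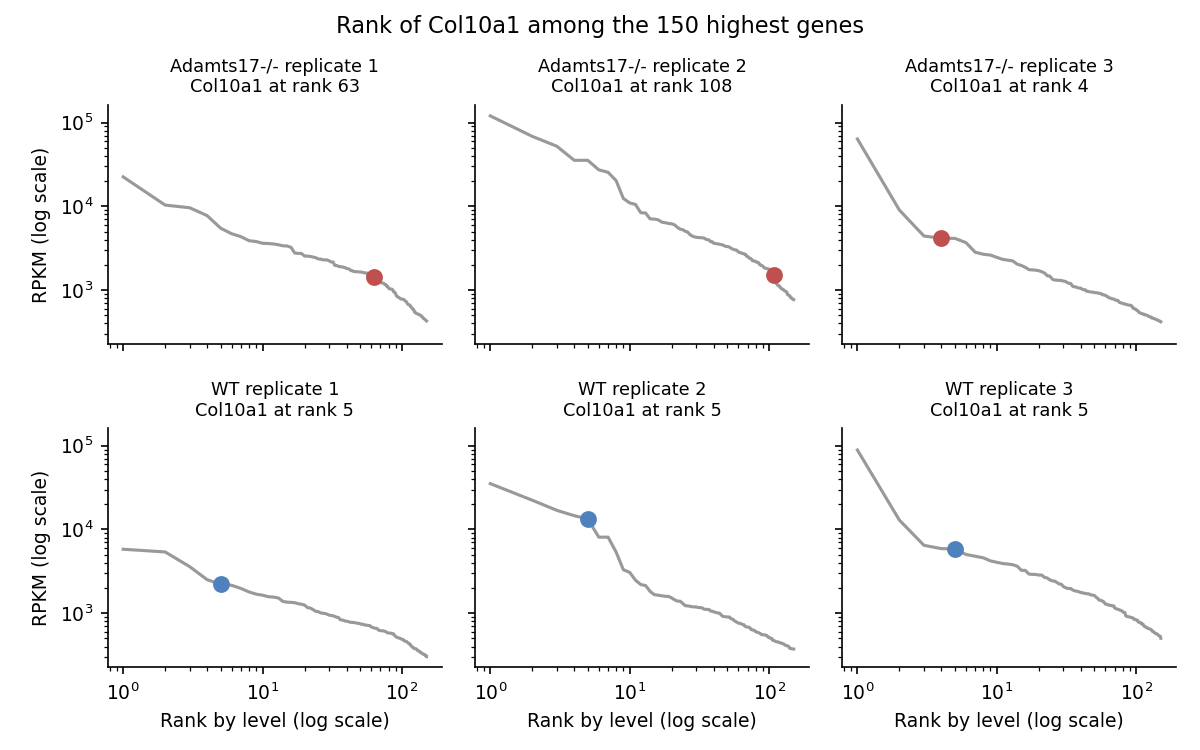
RPKM of the 150 highest genes of each library against rank, both on log axes, with Col10a1 as a dot (red Adamts17-/-, blue WT). The dot is at rank 63, 108 and 4 in Adamts17-/- and at rank 5 in each WT library.

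Over all libraries 117 genes exceeded Col10a1 in at least 1. Fndc9, a fibronectin type III domain gene, was the single one to exceed it in all 6, at 22468, 25464 and 63663 RPKM in Adamts17-/- and 5803, 22339 and 88794 RPKM in WT. Hdac3, a histone deacetylase, exceeded it in 4. Hba-a1, Hbb-b1 and Rps12 were among those that did so in 3. In WT replicate 1 the genes above it besides Fndc9 were the muscle genes Tnnc2, Myl1 and Mylpf, and in WT replicate 2 they were globin genes.

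Among 42 collagen genes Col10a1 was first in 5 libraries and at rank 3 in Adamts17-/- replicate 2. It made up 58.6%, 20.7% and 81.9% of the summed collagen RPKM in Adamts17-/-, and 52.4%, 82.0% and 74.3% in WT. The difference of -15.8 percentage points had an SE of 19.9 (exact two-sided permutation p = 0.6). Adamts17-/- replicate 2 was the low one, and there Col1a2 (3610 RPKM) and Col1a1 (1565 RPKM), the chains of collagen I, the main collagen of bone and fibrous tissue, were above Col10a1. Together the collagen I chains took 22.5%, 71.1% and 1.68% of collagen RPKM in Adamts17-/-, and 19.1%, 0.506% and 6.08% in WT. With the collagen I genes left out of the sum, the Col10a1 share was 76.9 ± 5.90% in Adamts17-/- and 75.4 ± 9.42% in WT (SD, n = 3 each), a difference of 1.49 points (exact two-sided permutation p = 0.8). Without Adamts17-/- replicate 2 the difference of the full share was 0.717 points. The summed RPKM of 8 osteoblast markers was 5270 in that library and 110.1 to 850.2 in the others. That list includes the collagen I genes, which made up most of the 5270, so the sum is no separate support. Ifitm5, the highest of its other members by mean, was at 89.2, 82.0 and 44.3 RPKM in Adamts17-/- and 0.987, 0 and 112 RPKM in WT.

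**Figure D3:**
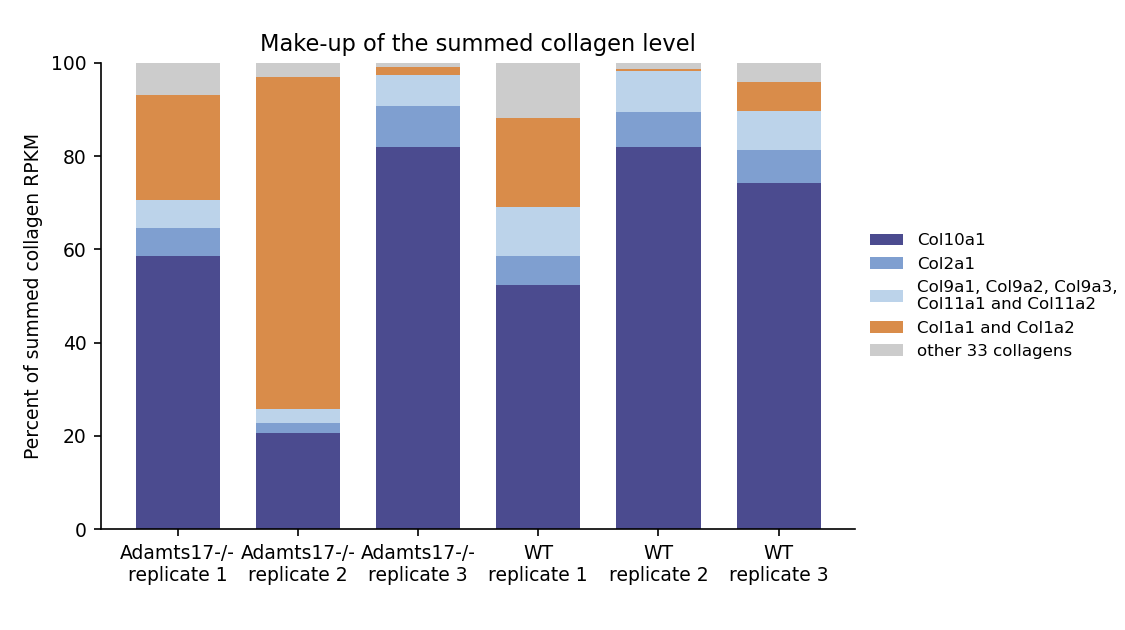
Percent of the summed RPKM of 42 collagen genes that falls to Col10a1, Col2a1, the collagen IX and XI genes, the collagen I genes and the others, in each library (Adamts17-/- left, WT right). Col10a1 is the largest part in 5 libraries, and in Adamts17-/- replicate 2 the collagen I genes take 71.1%.

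The closest relatives of collagen X by type of assembly, the other network-forming collagens, were far lower. Col8a1, a chain of the short-chain collagen VIII, was at 0.161, 0 and 0.307 RPKM in Adamts17-/-, and at 0.419, 1.52 and 0.0114 RPKM in WT. Col8a2, the other chain, was at 21.9, 0 and 0.483 RPKM in Adamts17-/- and at 1.65, 0.0147 and 0.390 RPKM in WT. Neither passed the filter on low values. Col4a1 and Col4a2, chains of the basement membrane collagen IV, had log2 fold changes of -1.40 ± 1.42 and -1.60 ± 1.69 (SE). Col4a4, another chain of collagen IV, was at 11.3, 10.2 and 5.96 RPKM in Adamts17-/- and 5.87, 12.8 and 32.4 RPKM in WT. Col4a3, Col4a5 and Col4a6 stayed at or under 4.44 RPKM in Adamts17-/- and at or under 0.788 RPKM in WT. Of the 9 genes of this class 4 were tested. All 4, Col10a1 included, had a fold change below 0, against 47.2% of all genes. None of the 4 passed the test (adjusted p = 0.999 by limma for each).

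Most tested collagens, Col10a1 itself counted among them, had a fold change below 0. Of 24 that passed the filter (a value of at least 1 RPKM in at least 3 libraries), 19 (79.2%) had a log2 fold change below 0, against 47.2% of all 9128 genes, and their median was -1.41 against 0.08. None of the 24 was called (0 of 24 at an unadjusted p under 0.05 as well). In 5 of them (20.8%) the groups did not overlap, against 6.63% of all genes. These were Col9a2 and Col9a3 of the cartilage collagen IX, Col27a1, a fibril collagen of cartilage, and Col6a1 and Col6a3 of the pericellular collagen VI, each lower in every Adamts17-/- library than in every WT library, a pattern that 3.54% of all genes had. Col10a1 was not among them. The collagens above 0 were Col1a1, Col1a2, Col13a1, Col15a1 and Col22a1. Without Adamts17-/- replicate 2 and WT replicate 1 together, 19 of 24 were below 0, and with 1 library left out 16 to 22 were.

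**Figure D4:**
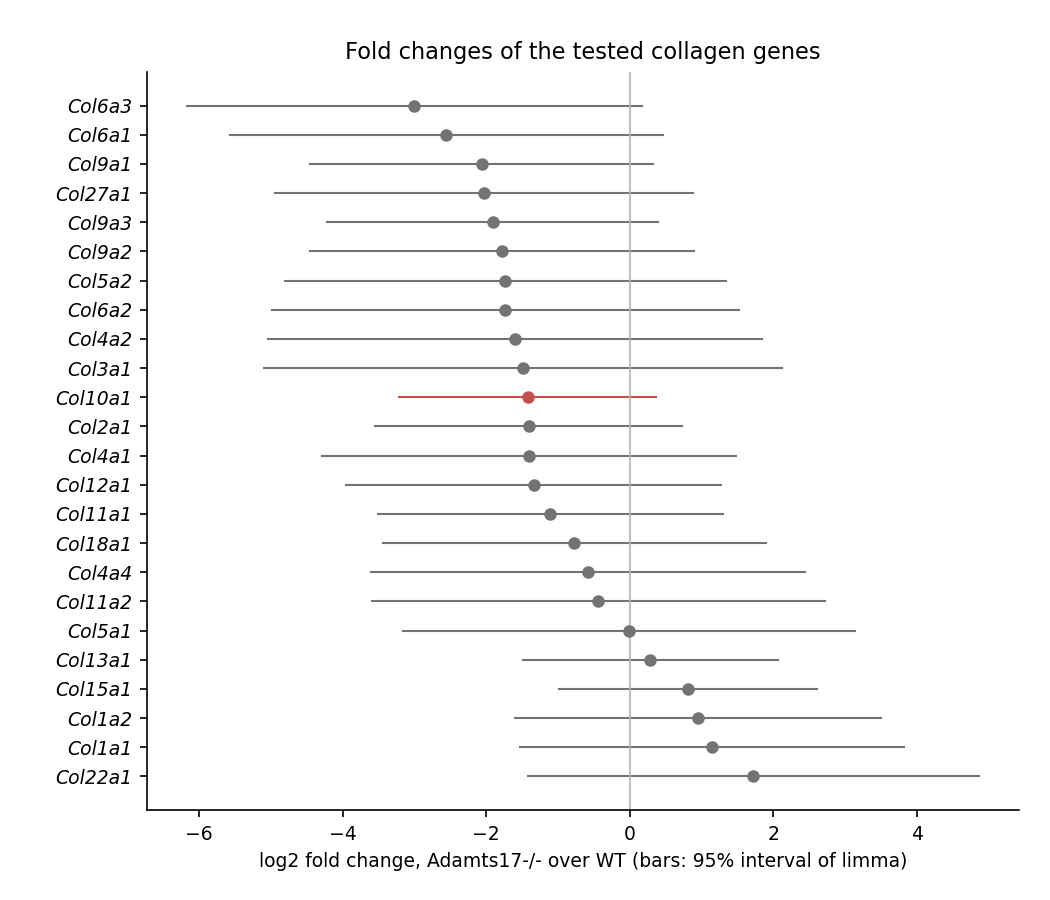
Log2 fold change, Adamts17-/- over WT, of the 24 tested collagen genes, with the 95% interval of limma as bars and Col10a1 in red. Below 0 lie 19 points, among them Col10a1 at -1.42, and every interval includes 0.

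The ratio of Col10a1 to Col2a1, per transcript length, was nearly the same in all libraries, although each gene varied more than 8-fold. Col2a1 was at 148.1, 144.1 and 447.7 RPKM in Adamts17-/-, and at 265.1, 1212 and 560.1 RPKM in WT. Col10a1 was thus 9.70, 10.5 and 9.27 times Col2a1 in Adamts17-/-, and 8.37, 11.01 and 10.5 times Col2a1 in WT. The log2 ratio averaged 3.29 ± 0.09 in Adamts17-/- and 3.30 ± 0.21 in WT (SD, n = 3 each), a difference of -0.01 ± 0.13 (SE, exact two-sided permutation p = 0.9). The Adamts17-/- ratios lay inside the range of the WT ratios, and the log2 ratio's SD over all 6 libraries was 0.14, against 1.26 for Col10a1 itself and 1.19 for Col2a1. Library scaling cancels in this ratio. With the mean of Col2a1, Col9a1, Col9a2, Col9a3 and Col11a1 as the denominator, the difference was 0.23 (p = 0.7, the same exact test). Acan, the aggrecan core protein gene, followed less closely, with Col10a1 at 26.7, 29.6 and 21.9 times its level in Adamts17-/- and 28.8, 33.4 and 42.2 times in WT.

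Col2a1 was also the gene whose pattern was most like that of Col10a1. Likeness was measured as Pearson's r of log2(RPKM + 1) over the 6 libraries, as a description, for 4643 other genes that passed the filter and averaged at least 10 RPKM, whose median r was -0.12. The highest values were 0.994 for Col2a1, 0.969 for Acan, 0.960 for Ptp4a1, a phosphatase gene, 0.954 for Dnm3os, a non-coding RNA gene, and 0.952 for Snx2, a sorting nexin. Ubr2, C87414, Loxl4, Cpne8 and Fry followed, at 0.952 to 0.915. Loxl4, a lysyl oxidase-like enzyme of collagen crosslinking, was at 21.6, 16.8 and 135 RPKM in Adamts17-/- and 28.0, 314 and 60.9 RPKM in WT. Spearman's rho was 0.943 for Col2a1 and 0.886 for Acan, and without WT replicate 2 and Adamts17-/- replicate 1, the libraries farthest from the Col10a1 median, r was 0.984 and 0.8996. The points share their library, its depth and its scaling. By the SD of the difference in log2(RPKM + 1), which a gene must keep small to hold a fixed ratio, Col2a1 (0.15) and Acan (0.32) also came first of the 4643 genes, followed by Ubr2 (0.41), with a median of 2.36.

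**Figure D5:**
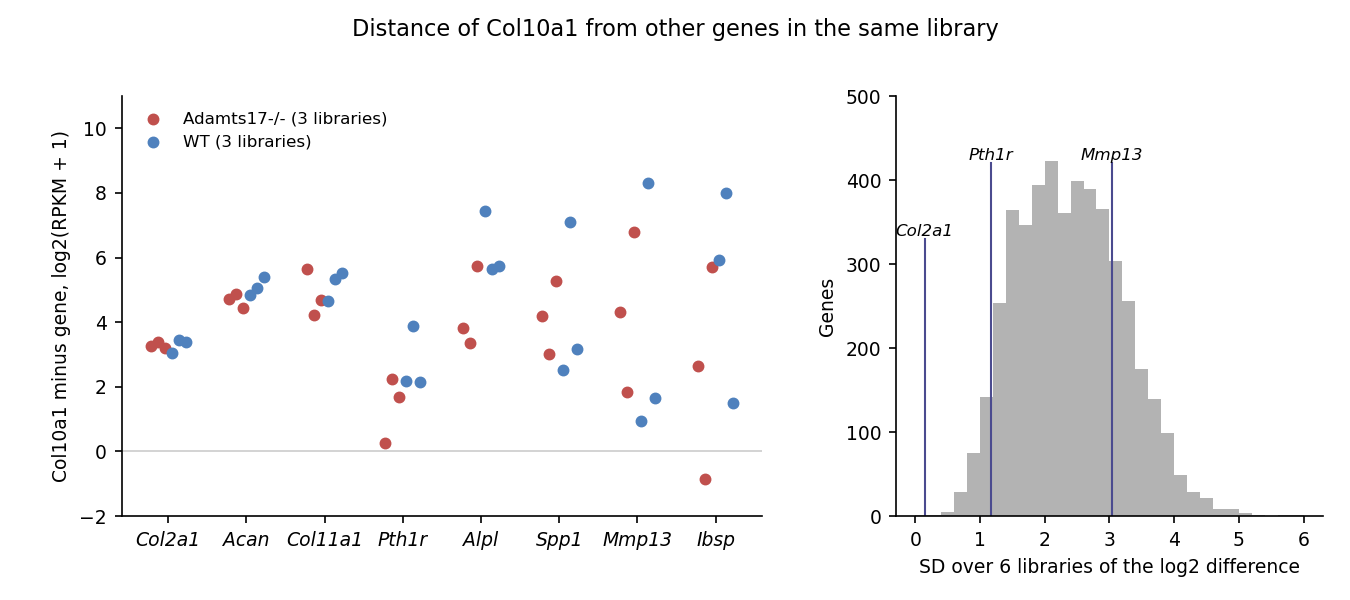
Left, Col10a1 minus each named gene in log2(RPKM + 1), with a point per library (red Adamts17-/-, blue WT). Right, the SD of that difference over the 6 libraries for 4643 genes; the difference to Col2a1 has an SD of 0.15, to Pth1r 1.16 and to Mmp13 3.03.

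The other markers of the hypertrophic state that are named here lay at varied distances from a fixed ratio to Col10a1. Each was farther than Col2a1, but Col2a1 came first of the 4643 genes, so this held for all others. The SD of the log2(RPKM + 1) difference was 1.16 for Pth1r, 1.49 for Alpl, 1.72 for Spp1, 3.03 for Mmp13 and 3.28 for Ibsp. The median over the 4643 genes was 2.36. Of 13 listed genes 12 were in the table and 11 were tested, 6 with a log2 fold change above 0 and 5 below 0, with a median of 0.11, against 47.2% below 0 and a median of 0.08 over all genes. None was called. Pth1r, which encodes the receptor for parathyroid hormone-related protein, was at 1213, 317 and 1300 RPKM in Adamts17-/- and 485, 911 and 1336 RPKM in WT. Col10a1 was above it in every library, by 1.18 to 14.6 times. Mmp13, the collagenase of the late zone, was exceeded 1.93 to 326 times, with r = -0.23 to Col10a1. Spp1, which encodes osteopontin, had r = 0.03. Ibsp, which encodes bone sialoprotein, had r = -0.28 and stood above Col10a1 in Adamts17-/- replicate 2, at 2719 RPKM. Alpl, the alkaline phosphatase of mineralising cells, was at 102, 147 and 76.8 RPKM in Adamts17-/- and 11.7, 266 and 110 RPKM in WT (r = 0.42).

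Regulators that act on Col10a1 transcription were much lower in level than the gene itself. Of 15 listed genes 13 were in the table and 9 were tested, 3 above and 6 (66.7%) below 0, and none was called. Their median log2 fold change was -0.88, against 47.2% below 0 and a median of 0.08 over all genes. Runx2, the transcription factor that activates Col10a1 in hypertrophic cells, was at 59.1, 15.6 and 38.2 RPKM in Adamts17-/- and 15.2, 36.5 and 40.8 RPKM in WT (log2 fold change 0.21 ± 1.32, SE). Its partner subunit gene Cbfb was at 2.34, 143.6 and 0.0769 RPKM in Adamts17-/- and 14.2, 7.45 and 92.2 RPKM in WT. Mef2c, a further activator of hypertrophy, was at 33.2, 23.6 and 2.95 RPKM in Adamts17-/- and 36.9, 52.5 and 217 RPKM in WT. For Mef2c the highest Adamts17-/- library stayed under the lowest WT library, but the log2 fold change of -2.35 ± 1.36 did not pass (adjusted p = 0.999, limma). Sox9, which holds chondrocytes in the earlier state, was at 0.334, 0.153 and 13.4 RPKM in Adamts17-/- and 11.4, 5.71 and 0.653 RPKM in WT, and its co-factor gene Sox6 had a log2 fold change of -1.39 ± 1.41. Of the tested regulators 11.1% (1 of 9) had no overlap, against 6.63% of all genes.

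None of the genes for folding, modifying and exporting collagen chains passed the test. Of 18 listed genes 17 were in the table and 15 were tested, 13 below 0 and 2 above, with a median of -0.80, against 47.2% below 0 and a median of 0.08 over all genes. The groups did not overlap for 6.67% of them (1 of 15, P3h1), close to the 6.63% of all genes. P4hb, the beta subunit of prolyl 4-hydroxylase, was at 142, 153 and 76.0 RPKM in Adamts17-/- and 122, 88.9 and 366 RPKM in WT. Ppib, a prolyl isomerase, was at 51.7, 41.7 and 2.04 RPKM in Adamts17-/- and 28.3, 35.8 and 35.5 RPKM in WT. Crtap, a part of the prolyl 3-hydroxylase complex, had a log2 fold change of -0.80 ± 1.31, and Fkbp10, a chaperone for procollagen, 1.03 ± 1.35. P3h1, prolyl 3-hydroxylase 1, was at 1.45, 0.142 and 0.0233 RPKM in Adamts17-/- and 7.81, 2.27 and 62.0 RPKM in WT. The log2 fold change of P3h1 was -3.10 ± 1.52 (adjusted p = 0.999, limma). Among 9 listed collagen receptors 4 were tested, all with fold changes below 0, against 47.2% of all genes, and none called. Itgb1, the integrin beta 1 chain, was at 12.5, 37.2 and 43.0 RPKM in Adamts17-/- and 54.5, 6.37 and 157 RPKM in WT. Ddr2, a receptor tyrosine kinase bound by collagen X, was at 0.185, 8.83 and 0.135 RPKM in Adamts17-/- and 4.22, 2.51 and 0.173 RPKM in WT.

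Col10a1 lies wholly inside Nt5dc1, a nucleotidase domain gene on the reverse strand (chromosome 10, 34303612 to 34418528 in the table). Exons of an Nt5dc1 transcript share 18 bases (0.575%) with the Col10a1 exons in GENCODE M21. The sources used here do not say whether counting used strand, so reads from those bases cannot be assigned with certainty. Nt5dc1 was at 0, 16.1 and 0.144 RPKM in Adamts17-/- and 2.19, 0 and 1.003 RPKM in WT, far under Col10a1 in every library. The nearest listed genes that do not overlap were Tspyl4, 88660 bases before, and Frk, 86314 bases after. Tspyl4 was at 0.0131 to 7.94 RPKM in Adamts17-/- and 0.0326 to 0.359 RPKM in WT. Frk, a tyrosine kinase gene, was at 0.00992 to 0.372 RPKM in Adamts17-/- and 0.0295 to 4.45 RPKM in WT. All of them were far under Col10a1 in every library.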

How the data were processed

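Tibial hypertrophic zones were dissected by laser, RNA was isolated with a PicoPure kit, amplified with RiboAmp HS PLUS and sequenced after TruSeq RNA library preparation, per the labels' protocols. The authors deposited 1 table of normalized values, read here as RPKM because value times transcript length falls on multiples and simple fractions of 1 step per library. Its name carries the letters TMM (trimmed mean of M-values). For the aligner, the counting program and the strand setting the sources used here name nothing. Values were not whole reads, so no count model was fitted.

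Each column name is the description of 1 sample, and groups and replicate numbers came from the titles. Log2(RPKM + 1) of 9128 genes with at least 1 RPKM in at least 3 libraries was compared with limma 3.58.1 in R 4.3.3 (eBayes with its trend option, Benjamini-Hochberg adjustment, threshold 0.05), checked on simulated data. Single values over libraries were tested by exact permutation. Ranks, ratios and shares used the deposited values (Python 3.11.15, numpy 2.4.6, pandas 2.3.3, matplotlib 3.10.9). Older symbols were matched through RefSeq synonyms.

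The genes and lists were chosen with earlier results of these data known. Genes were named by a written rule: Col10a1, Col2a1, the 10 most alike, those above Col10a1 in all libraries, the 10 highest collagens and the network-forming collagens, up to 4 members per list with the highest means, members without overlap, and genes at the locus. Hdac3, Rps12, the globin and muscle genes above Col10a1, Alpl, Sox9, Myl1, Col27a1, Col6a1, Col6a3, Col13a1, Col15a1 and Col22a1 were named after their values were seen. Alternatives changed the pseudocount, the filter, the scaling, the spread model or the library weights, added a replicate block, or left out libraries.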

Additional observations from a re-analysis of the deposited data

How the results depend on the processing

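The log2 fold change of Col10a1 stayed below 0 and did not pass in any of 17 alternative fits (-2.09 to -0.64, adjusted p 0.832 to 1), and library weights gave the value nearest 0. Scaling by the upper quartile gave -1.68, quantile normalization -1.99 and totals without the top 10 genes -1.86, where the median of all genes moved by -0.19, -0.07 and -0.33. A fit with replicate number as a block gave -1.42 ± 1.14 (SE) and changed no call. The deviations of same-numbered libraries correlated at -0.01, -0.35 and -0.10, and of differently numbered ones at -0.17 to 0.22. With 3 libraries per group, such values cannot decide whether the numbers pair the libraries. Genes called numbered 0 in the main comparison, 1 with library weights (Myl1) and 0 to 5 with 1 library left out (5 without Adamts17-/- replicate 3). The Adamts17-/- minus WT difference of the log2 ratio to Col2a1 (-0.01) changed sign to 0.23 with the mean of Col2a1, Col9a1, Col9a2, Col9a3 and Col11a1 as the denominator, and single omissions gave -0.13 to 0.066. It was -0.18 without WT replicate 1 and Adamts17-/- replicate 2 together. The Adamts17-/- minus WT difference of the Col10a1 share of collagen RPKM (-15.8 points) changed sign to 1.49 points without the collagen I genes, and single omissions gave -29.9 to 0.717 points. The median rank was 5 in all such alternatives except read equivalents (4). The causes were not tested. The count of collagens below 0 under alternatives (15 to 22) was chosen after seeing the data. Depth limits low genes far more than Col10a1.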
